A study of Mus musculus with 3 samples.

Results

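The homeobox and PAX transcription factors of the choroid plexus epithelium (CPE) were followed through 179 probes of 122 genes, out of 41174 probes with 27845 names on the array. A probe belonged to the set when its gene name in the scanner files was that of a HOX cluster gene (50 probes of 38 genes), a LIM homeodomain gene (14 of 10), a paired-like gene such as Otx or Prrx (14 of 7), an NK-like or engrailed gene including Msx, Dlx, Emx, Gbx and Vax (35 of 27), a PAX gene (15 of 9), a sine oculis gene (9 probes), a TALE gene of the Meis, Pbx or Irx kind (21 of 11) or a POU gene (21 of 14). The rule reads gene names alone. The CPE is the epithelium that secretes cerebrospinal fluid into the brain ventricles. It was laser dissected from frozen brain sections of 3 healthy, untreated, adult female C57BL/6 mice. The amplified RNA of each mouse was labelled red (Cy5) on an array of its own. All 3 arrays carried the same reference in green (Cy3), an RPE/choroid RNA from C57BL/6 eyes, where RPE stands for retinal pigment epithelium and the choroid is the vascular layer behind it. The arrays of mice 1 and 3 were scanned on the same day and that of mouse 2 was not. For mouse 2, scan day and animal therefore cannot be told apart. The dyes were not swapped, so a preference of a probe for 1 dye stays in every ratio. The reference was 1 RNA, so its own spread between animals is not in the error, and in dissected tissue fewer cells of a type and less RNA per cell cannot be told apart.

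Homeobox genes encode transcription factors that bind DNA through the homeodomain, and PAX proteins bind through a paired domain, which several of them combine with a homeodomain. In the embryo these factors lay out the body axis and the regions of the brain and eye. The choroid plexus arises from the dorsal midline of the neural tube, where Otx2, Lmx1a, Msx1 and Msx2 are known to act. Pax6, Lhx2 and Vax2 are known for their roles in the eye. Naming a factor for either place here does not exclude a role in the other. HOX genes are known for setting position along the hindbrain, spinal cord and trunk, behind the forebrain.

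Promoter sequence was available in RefSeq (GRCm38.p6) for 81 of the 122 genes. The scanner files place probes on the older mouse build mm8, so the 2 sets of coordinates are not comparable. The 250 bases before the most 5′ listed start are shown for 4 genes on which the results below turn: Msx1 and Lmx1a, which were higher in CPE than in the reference, Otx2, which ranked highest of the set in CPE, and Pax6, which was lower in CPE. Capitals mark TAAT or, on the other strand, ATTA, the core that many homeodomains bind, and TAATTA holds both.
Msx1, chr5:37824586-37824835, reverse strand: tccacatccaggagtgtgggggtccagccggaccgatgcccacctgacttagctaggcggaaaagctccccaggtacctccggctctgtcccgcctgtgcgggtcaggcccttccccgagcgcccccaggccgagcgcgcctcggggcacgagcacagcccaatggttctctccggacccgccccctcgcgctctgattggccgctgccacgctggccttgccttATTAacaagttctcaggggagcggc
Lmx1a, chr1:167689308-167689557, forward strand: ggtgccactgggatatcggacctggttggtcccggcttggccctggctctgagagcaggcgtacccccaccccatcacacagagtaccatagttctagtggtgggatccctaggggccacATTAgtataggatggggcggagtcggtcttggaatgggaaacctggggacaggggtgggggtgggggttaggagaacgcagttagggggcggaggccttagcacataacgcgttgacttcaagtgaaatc
Otx2, chr14:48667645-48667894, reverse strand: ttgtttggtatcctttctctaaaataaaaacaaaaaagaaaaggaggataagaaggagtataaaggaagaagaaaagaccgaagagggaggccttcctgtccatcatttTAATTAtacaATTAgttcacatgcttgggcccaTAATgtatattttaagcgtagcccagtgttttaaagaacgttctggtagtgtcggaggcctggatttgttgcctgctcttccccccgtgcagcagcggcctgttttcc
Pax6, chr2:105668646-105668895, forward strand: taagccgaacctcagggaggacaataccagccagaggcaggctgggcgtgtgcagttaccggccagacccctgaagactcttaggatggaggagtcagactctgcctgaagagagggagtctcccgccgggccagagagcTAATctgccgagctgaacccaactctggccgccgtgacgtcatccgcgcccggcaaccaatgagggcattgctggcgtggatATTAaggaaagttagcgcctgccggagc
The windows of Msx1 and Lmx1a each held 1 such core, that of Pax6 held 2 and that of Otx2 held 4. Over all listed starts of the set, 56.1% of 98 windows of 250 bases held the core on either strand, against 54.9% of all 32851 windows in the table. The longer motif TAATCC, which contains the core and was searched on both strands (GGATTA), was found in 2.04% of the set's windows against 6.25% of all windows. The set's windows were richer in the dinucleotide CG, with a median of 14 per window against 6 over all windows. Of the windows shown, Msx1 had 20, Pax6 15, Lmx1a 9 and Otx2 6. These counts describe letters in a window and not binding.

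Few of these probes gave a signal clear of the background in CPE. The scanner software flags a spot as well above background, and 34 of 179 probes (19%) carried that flag in the CPE channel on all 3 arrays, against 44.9% of all probes. Without mouse 2 there were 60 (33.5%), against 56.2% of all probes. In the reference channel 59 did, where the share over all probes was 61.5%. The flag passed on all arrays in both channels for 27, and it was absent on every array in both channels for 15. Over all 41174 probes these numbers were 17951 and 2494. By mouse, 64 probes (35.8%) passed in CPE in mouse 1, 37 (20.7%) in mouse 2 and 147 (82.1%) in mouse 3, where 58.5%, 46% and 85.6% of all probes passed. Of the last, 86 passed in mouse 3 alone, against 12041 of all 41174 probes. That array read differently from the other two. The median raw CPE signal of the 179 probes was 100.2, 87.7 and 630.5 in mice 1, 2 and 3, and the median of 314 negative control spots, which match no mouse transcript, was 77.5, 78.1 and 356.8. The local background was alike, at 57, 56 and 58. Set against the 95th percentile of the negative controls of each array, an alternative added after the data had been seen, 80 of 179 probes (44.7%) lay above it in all 3 mice, against 63.2% of all probes. The share was below that of all probes by both measures.

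**Figure D1:**
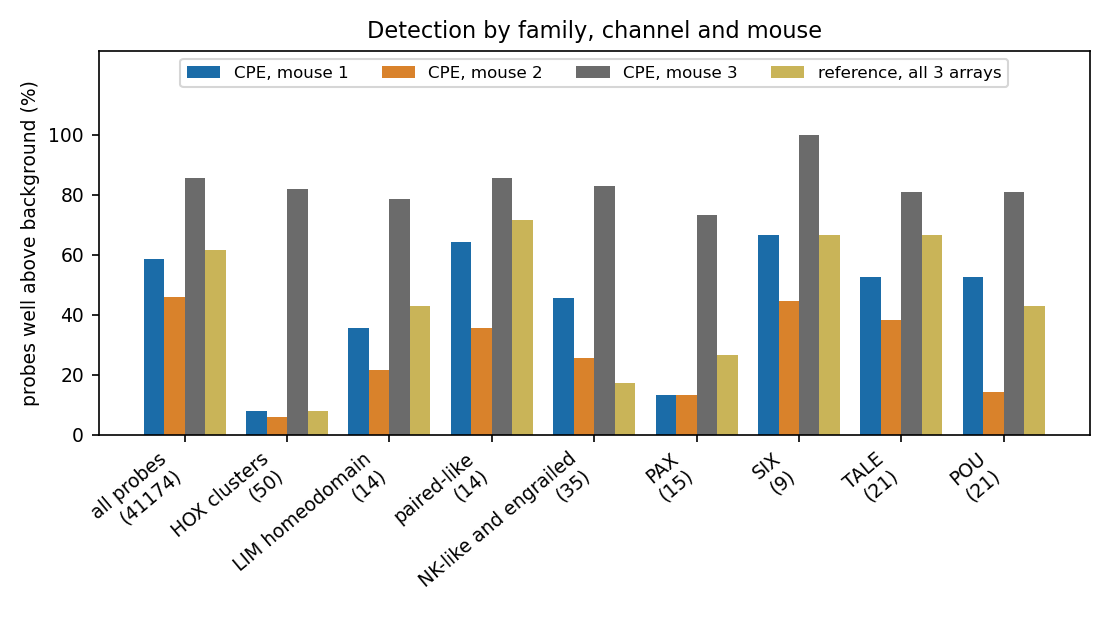
Percent of probes flagged as well above background for all probes and for each family (number of probes in brackets), in the CPE channel of each mouse and in the reference channel on all 3 arrays. The HOX clusters and PAX stood at 6% to 13.3% in mice 1 and 2 and at 82% and 73.3% in mouse 3.

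Ranked by their CPE level over all probes, Otx2 and Msx1 were the 2 members in the high class, above the 90th percentile of the mean of the 3 mice. A share of 10% of all probes lies in that class by construction. A further 53 probes were moderate (50th to 90th percentile), 109 low (10th to 50th) and 15 very low, and the median percentile was 35.4. Percentiles rank probes, which hybridise unequally, and so do not order transcripts of different genes. The Otx2 probe, at chr14:47580372-47580431, stood at percentile 99.2, 98.8 and 99.1 in the 3 mice. Otx2, a paired-like factor of forebrain, midbrain and choroid plexus development, was therefore at the top of the range in every mouse. One of the 2 Msx1 probes, at chr5:38109315-38109374, stood at 98.8, 98.2 and 98.8. The other, at chr5:38109253-38109309 and 62 bases nearer the 3′ end, stood at 90.1, 93.6 and 77 and averaged 89.0, just under the class. Msx1 encodes a homeodomain repressor of the dorsal midline. Next in rank came Pbx3 (85.4) and Pbx2 (83.6), partners of HOX and other homeodomain proteins, and Lhx2 (79.9), each from its highest probe. The same 2 genes alone were in the high class under every alternative for the class, and without mouse 3 the second Msx1 probe joined them, for 3 probes.

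**Figure D2:**
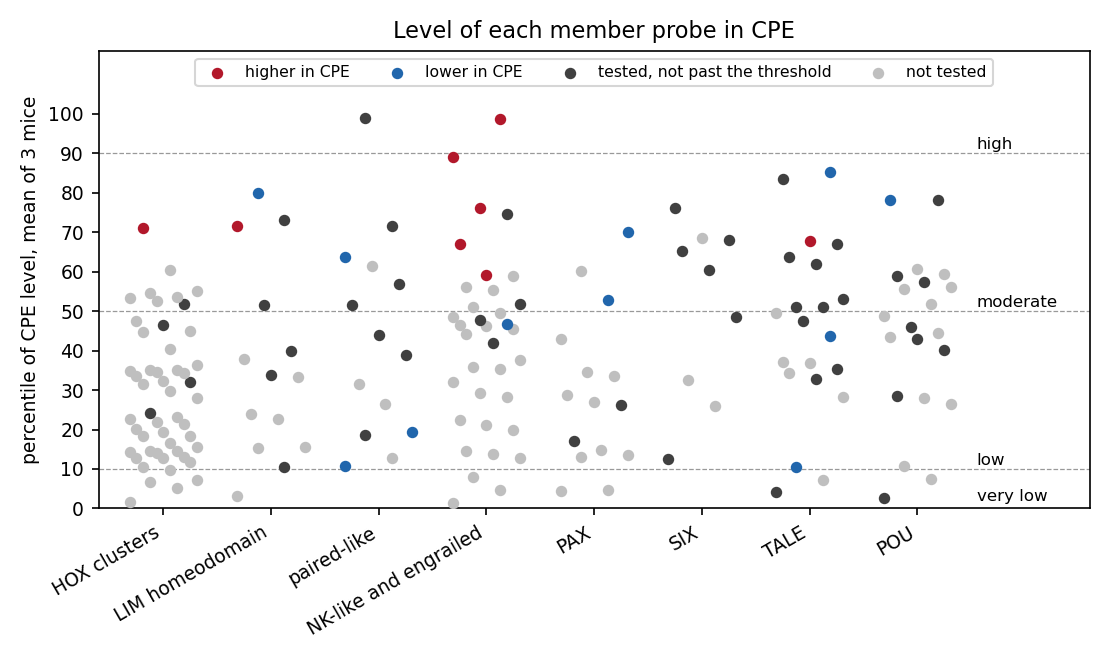
Percentile of the CPE level (mean of 3 mice) of each of the 179 probes by family, coloured by the comparison with the reference; dashed lines separate the classes. Otx2 and 1 Msx1 probe lie above 90, and most HOX and PAX probes lie below 50.

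Against the RPE/choroid reference, 66 of the 179 probes could be tested, since the flag was set in all 3 mice for CPE, for the reference or for both. The threshold was an adjusted p of 0.05 (limma, Benjamini-Hochberg over all 25847 probes tested) together with a change of at least 2-fold. Past it, 8 probes of 7 genes were higher in CPE, or 12.1% of those tested, against 7.09% of all probes tested. A further 11 probes of 9 genes were lower, or 16.7%, against 10.2% of all probes tested. In either direction 17.3% of all probes tested were called. With 1 probe per gene, the brightest, 6 genes were higher and 9 lower among 47 tested. The median log2 ratio of the tested members was -0.05, and that of all probes tested was -0.04. Higher calls made up 42.1% of the calls in the set and 41.1% of all calls, and with each array centred on its median in place of loess these shares were 47.8% and 67%, the median of all probes tested having moved to 0.09.

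The members higher in CPE were led by Msx1. For the Msx1 probe in the high class the log2 ratio was 3.40, 2.36 and 2.83 in mice 1, 2 and 3, a mean difference of 7.27-fold (log2 2.86, SE 0.21, adjusted p = 7.3e-05). For the second Msx1 probe it was 3.09, 3.50 and 3.02, or 9.22-fold (log2 3.20, SE 0.17, adjusted p = 1.7e-05). All 6 values lay above 2, and both probes were higher in 3 of 3 mice. The reference was well above background on all arrays for the first probe and on 2 of 3 for the second. Msx2, the close relative of Msx1, gave 1.77, 1.87 and 0.76, or 2.76-fold (SE 0.24 on the log2 scale, adjusted p = 0.0025), against a reference clear of background on 2 of 3 arrays. The Msx2 probe ranked at percentile 64.7 and 67.2 in mice 1 and 2 and at 20.6 in mouse 3. Lmx1a, a LIM homeodomain factor of the roof plate, gave 2.29, 1.63 and 0.89, or 3.04-fold (SE 0.26, adjusted p = 0.0024), against a reference clear of background on 1 of 3 arrays. Its probe at chr1:169684432-169684491 ranked between percentiles 67.6 and 74 in the 3 mice. The relative Lmx1b could not be tested, as its probe passed the background flag on 1 array in each channel, with log2 ratios of 0.34, 0.12 and 0.10.

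Dlx1 and Dlx2, distal-less factors known for the development of inhibitory neurons in the forebrain, were also higher. Dlx2 gave log2 ratios of 3.49, 2.70 and 1.08 (mean 2.42, SE 0.39, adjusted p = 0.0027). The reference was not well above background for Dlx2 on any array, so the difference is given as a bound for the mean over mice, at least 3.92-fold higher in CPE. Dlx1 gave 2.55, 1.92 and 0.52, or 3.17-fold (SE 0.34, adjusted p = 0.0074), with the reference clear of background on 1 of 3 arrays. For both genes mouse 1 was highest and mouse 3 lowest. The Dlx2 probe ranked at percentile 78.1 and 69.9 in mice 1 and 2 and at 15.7 in mouse 3. Dlx5 was not tested and gave 2.03, 0.81 and -0.21. Among 8 neuron markers 5 were lower in CPE, Gad1, which makes the transmitter of inhibitory neurons, among them (log2 -2.82, SE 0.16, adjusted p = 2.1e-05). On all arrays 7 of the 8 were still well above background in CPE, and 8 in the reference. Gad1 was among those 7, at percentile 69.2 in CPE. Of 4 ependymal markers on the array 3 were higher in CPE, with a summed normalised intensity of 17586 to 22225 in CPE and 6246 to 7534 in the reference. The part of neurons and of the cells lining the ventricle in these values was not tested.

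The remaining members higher in CPE were Pbx2 and Hoxb3. For Pbx2, a TALE cofactor, the 5′ probe gave 1.31, 2.24 and 0.54, or 2.57-fold (SE 0.29, adjusted p = 0.0089), and the 3′ probe gave 0.78, 0.50 and 0.32 (log2 0.54, SE 0.16, adjusted p = 0.034), under the 2-fold threshold. Without mouse 2 the first dropped to 0.92 and was no longer past it. Hoxb3 gave 1.83, 1.52 and 0.39, or 2.37-fold (SE 0.27, adjusted p = 0.0090), and without mouse 1 it was at 0.95 (adjusted p = 0.050). Its reference was also clear of background on 1 of 3 arrays. Lmx1a, Dlx1, Dlx2, Msx2, Hoxb3 and the second Msx1 probe did not enter the test restricted to probes flagged in CPE and reference alike. Mouse 3 had the value nearest 0 for 7 of the 8 probes higher in CPE, as it did for 74.7% of all probes called higher. Emx1, a homeodomain factor of the dorsal forebrain chosen for mention after its values were seen, lay at the edge of the threshold with 1.05, 1.43 and 0.51 (SE 0.20, adjusted p = 0.0070, a fold of 1.99). Emx2 gave 0.83, 0.36 and 0.12 with its tested probe (log2 0.44, SE 0.18, adjusted p = 0.096).

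**Figure D3:**
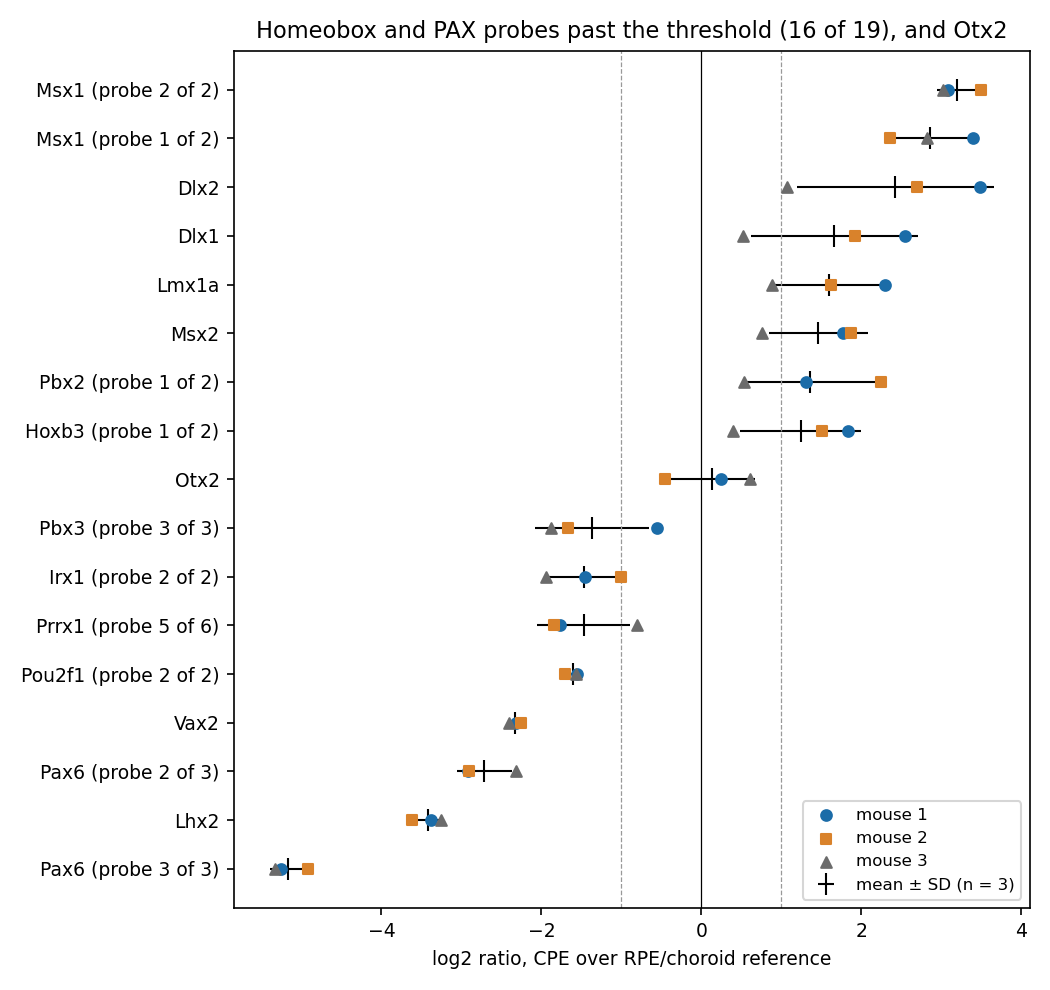
Log2 ratio of CPE over reference in each mouse for 16 of the 19 probes past the threshold and for Otx2, with mean and SD (n = 3); dashed lines mark 2-fold, and probes of a gene with several are numbered from the 5′ end. The values of the 3 mice share their sign for each of the 16 probes, those of Otx2 lie on both sides of 0, and 7 of the 8 probes higher in CPE have mouse 3 nearest 0.

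Otx2 did not differ from the reference beyond the spread between mice. Its log2 ratio was 0.25 in mouse 1, -0.45 in mouse 2 and 0.61 in mouse 3, with a mean of 0.14 (SE 0.22, adjusted p = 0.66). The sign turned with the mouse, and without mouse 3 the mean was -0.10. With median centring in place of loess it was 1.01 (adjusted p = 0.036), past the threshold. The probe was flagged in CPE and in the reference on each array, so this is a comparison of 2 measured levels. Otx1 was not called with either probe. Its 5′ probe gave 0.81, -0.08 and -0.11 and its 3′ probe -0.13, -0.34 and -0.40 (adjusted p = 0.49 and 0.18).

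The members lower in CPE included Pax6, Lhx2 and Vax2. Pax6, required for eye development, gave log2 ratios of -5.26, -4.92 and -5.33 with its 3′ probe at chr2:105497959-105498018, or 36.0-fold lower in CPE (log2 -5.17, SE 0.16, adjusted p = 4.9e-06). The next probe, 1686 bases upstream on the genome, gave -2.92, -2.91 and -2.32, or 6.56-fold lower (SE 0.18, adjusted p = 4.4e-05). The third, 13179 bases upstream of the first, gave -0.73, -0.63 and -0.39 (log2 -0.58, SE 0.16, adjusted p = 0.021), under the 2-fold threshold, with CPE clear of background on 1 array. All 9 values were below 0, and the size differed between probes by more than the spread between mice. The third probe was also the dimmest in the reference, at a log2 level of 7.93 against 11.94 for the first and 10.69 for the second. With the log ratio of the scanner software the third was at -1.74, past the threshold. The part of dim signal in the difference between probes was not tested. Lhx2, a LIM homeodomain factor of the eye field and cortex, gave -3.38, -3.62 and -3.25, or 10.7-fold lower (SE 0.16, adjusted p = 1.1e-05). Its probe still ranked at percentile 77.1 to 82.4 in CPE. Vax2, a factor of the ventral retina, gave -2.32, -2.26 and -2.40, or 5.01-fold lower (SE 0.15, adjusted p = 3.9e-05). For Lhx2 and Vax2 the values of the 3 mice lay close together.

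Prrx1, a paired-like factor known from mesenchyme, was lower too. Prrx1 has 6 probes, of which 3 were tested. The one past the threshold gave -1.76, -1.84 and -0.81, or 2.77-fold lower (SE 0.23, adjusted p = 0.0021). The other 2 stood at -0.76 and -0.73 (adjusted p = 0.0061 and 0.0077), under 2-fold. With the log ratio of the scanner software they were past the threshold, at -1.13 and -1.22. The untested probes had means of -0.33, -0.05 and 0.25. Stromal markers moved the same way, with 5 of 6 lower in CPE and a summed normalised intensity of 18724 to 21156 in CPE against 116513 to 135128 in the reference. Their part in the Prrx1 values was not tested.

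Among TALE genes, Pbx3 was lower with its 3′ probe (-0.56, -1.66 and -1.88, or 2.58-fold, SE 0.26, adjusted p = 0.0051), and its other 2 probes were too dim to test. With median centring Pbx3 was at -0.75 (adjusted p = 0.22). Irx1, an Iroquois factor, was at least 2.67-fold lower in the mean with the probe measured in the reference alone (-1.45, -1.0 and -1.94, adjusted p = 0.0013). The 2 Meis1 probes gave means of -0.55 and -0.35 (adjusted p = 0.054 and 0.13). Of the POU genes, the broadly expressed Pou2f1 was lower with its 3′ probe (-1.56, -1.70 and -1.57, or 3.05-fold, SE 0.15, adjusted p = 0.00020) and stood at 0.27 with its 5′ probe (adjusted p = 0.36). For 4 further members CPE was not well above background on any array with 1 probe. None of these 4 probes was past the threshold as processed here, but the result depended on the processing. With the log ratio of the scanner software all 4 were past it, at -2.71 (Pax3), -2.14 (Pou4f1), -2.52 (Irx2) and -1.58 (Lhx9). With median centring Pax3 (-1.06) and Pou4f1 (-1.18) were past it. Pax3, a factor of neural crest and melanocytes, gave -0.98, -0.28 and -1.13 (log2 -0.79, adjusted p = 0.017). Pou4f1, a factor of sensory and retinal ganglion neurons, stood at -0.81 (adjusted p = 0.0080) with that probe and at 0.18 (adjusted p = 0.41) with its other tested probe. Irx2 stood at -0.63 (adjusted p = 0.020) and Lhx9 at -0.39 (adjusted p = 0.14).

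The reference differs from CPE in its cells, and the markers of eye cells moved with the members lower in CPE. Of 9 photoreceptor markers 8 were lower in CPE, with a summed normalised intensity of 5402 to 7263 in CPE against 178851 to 183125 in the reference, and 8 of the 9 were still well above background in CPE. Of 11 RPE and melanocyte markers 10 were lower (6016 to 8447 against 249433 to 262165). Of 9 inner retina markers 7 were lower (16212 to 21254 against 64484 to 68869). Of 13 CPE markers 12 were higher (271273 to 317639 against 44220 to 48124), so the labelled tissue carried its defining transcripts. Of 6 macrophage markers 4 were lower, of 6 astrocyte markers 1 was higher and 3 were lower, and of 5 oligodendrocyte markers tested 2 were higher. Over all probes tested 7.09% were higher and 10.2% lower. The part of photoreceptors and other retinal cells in the Pax6, Lhx2 and Vax2 values was not tested.

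None of the sine oculis genes was called, with 6 of their 9 probes tested (limma, 1 of 6 at an unadjusted p under 0.05). Six3, a factor of the anterior forebrain and eye field, could not be tested with all 3 mice. Its 5′ probe gave 2.69, 0.46 and 0.55 and its 3′ probe 0.43, 0.16 and -0.12, so mouse 1 stood apart with 1 probe alone. Without mouse 2 the 5′ probe entered the test and was past the threshold at 1.62 (SE 0.35, adjusted p = 0.0020), from 2 mice that differed by more than its mean. Six6, a retinal factor, gave -0.38, -0.38 and -0.44 (log2 -0.40, SE 0.15, adjusted p = 0.069). Pax2, the optic stalk factor, and En2, the engrailed factor of the midbrain and hindbrain border, were not tested. Pax2 gave 0.48, 0.22 and 0.02 and En2 gave 0.43, 0.33 and -0.02.

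The HOX clusters were dim in CPE. Of their 50 probes 3 (6%) were well above background in CPE in all mice, against 44.9% of all probes. These were probes of Hoxb3, Hoxb6 and Hoxc4. A further 37 passed in mouse 3 alone, against 12041 of all 41174 probes. By cluster 0 of 14 Hoxa and 0 of 12 Hoxd probes passed in all mice, against 2 of 15 Hoxb and 1 of 9 Hoxc. In the reference 4 of the 50 passed on all arrays, against 61.5% of all probes. Above the 95th percentile of the negative controls in all 3 mice were 18 of 50 (36%), against 63.2% of all probes. Of the 50, 8 were moderate, 37 low and 5 very low, with a median percentile of 26. Only 5 could be tested. Hoxb3 was called higher, and the other 4 (Hoxb5, Hoxb6, Hoxc4 and Hoxd4) stood between -0.17 and 0.15. Hoxb3 itself was called with 1 of its 2 probes, at percentile 71.0, while the second, 1888 bases downstream, ranked at 14.6 with log2 ratios of -0.16, -0.42 and 0.02. Hoxa2 and Hoxa3, genes of the hindbrain, were flagged in mouse 3 alone, with log2 ratios between 0.01 and 0.38 over their 3 probes. For probes this dim a difference was not detectable, which is not the same as an absence of the transcript.

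**Figure D4:**
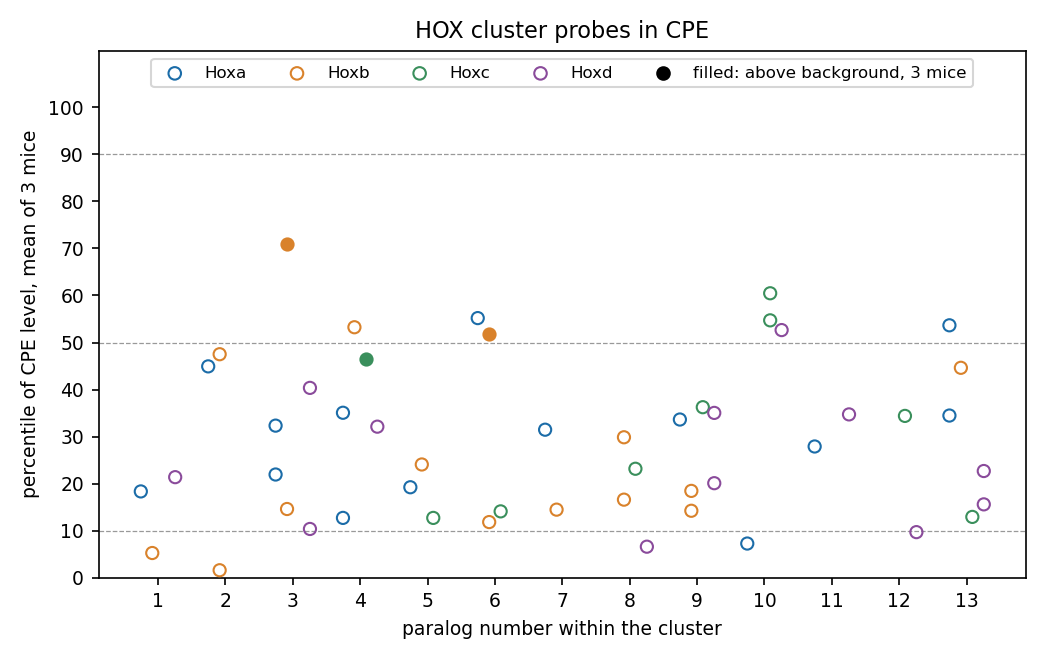
Percentile of the CPE level (mean of 3 mice) of the 50 HOX cluster probes by paralog number, coloured by cluster; filled points were well above background in CPE in all 3 mice and dashed lines separate the classes. The 3 filled points are Hoxb3 (71.0), Hoxb6 (51.8) and Hoxc4 (46.6), and the open points spread over low paralog numbers and high ones alike.

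Probes of the same member gene did not always read alike. Of 47 member genes read by more than 1 probe, the class differed between probes in 23. The share over all genes of the array was not computed, and for dim probes a change of class can lie within the spread between mice. In 8 genes 1 probe was past the threshold and another was either under it or too dim to test, while 0 had opposite calls. Pax6 was lower with more than 1 probe and by more at the 3′ end, its 5′ probe being the dimmest of them in the reference. Pou2f1 was lower with the 3′ probe alone, and so was Pbx3, whose other probes were not tested. Which isoforms these probes read was not analysed here.

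**Figure D5:**
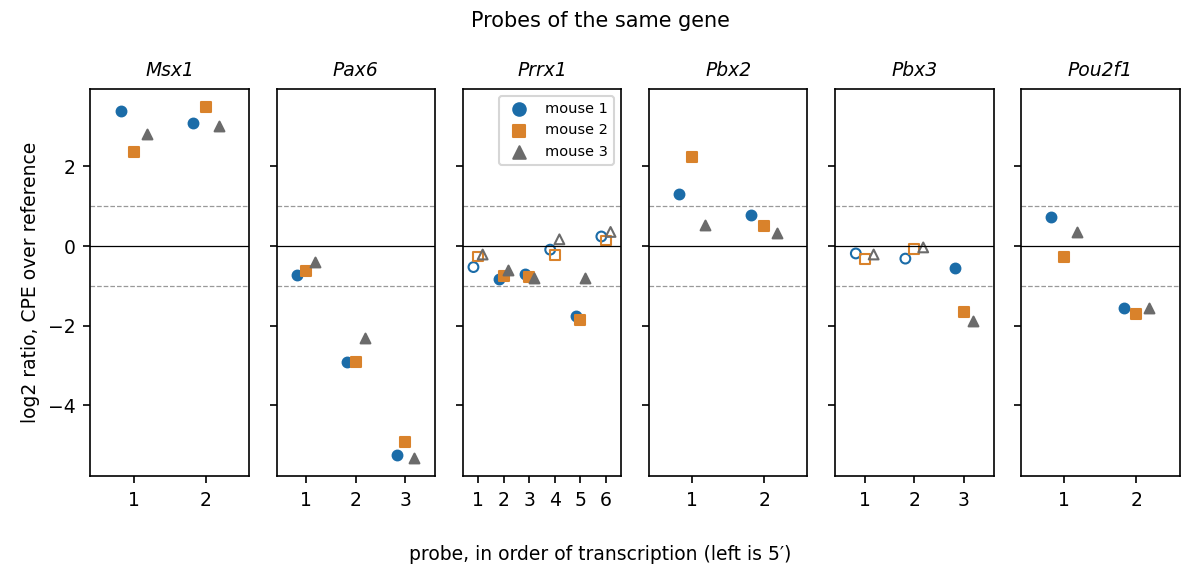
Log2 ratio of CPE over reference in each mouse for the probes of 6 genes, ordered from the 5′ end; open symbols were not tested and dashed lines mark 2-fold. Both Msx1 probes lie above 2 in every mouse, and the 3 Pax6 probes step down from -0.58 to -5.17 in the mean.

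Proteins that work with these factors, and homeobox genes of other families, were taken from lists with 1 probe per gene. Over all probes tested 7.09% were higher in CPE and 10.2% lower. Of 21 partners of LIM homeodomain and sine oculis factors and Groucho corepressors, 20 were tested, 2 were higher in CPE and 4 lower. The Groucho relative Tle5 was at log2 2.25 (SE 0.22, adjusted p = 0.00025) and Tle3 at 1.04. The LIM-only proteins Lmo1 and Lmo4, which compete for the cofactors of LIM homeodomain proteins, were at -3.52 (SE 0.18, adjusted p = 1.6e-05) and -1.73, and the sine oculis partners Dach1 and Eya1 at -1.54 and -1.40. Of 86 other homeobox genes on the array 58 were tested, with 6 higher and 11 lower. The lower ones included Crx, the photoreceptor factor (-3.36, SE 0.20) and Gsx2 (-2.43). Isl1 was 5.65-fold lower in the fitted mean (log2 -2.50, SE 0.20), with CPE not well above background on any array. The higher ones included the cut-like factors Cux2 (1.59, SE 0.17) and Cux1 (1.34, SE 0.15). The medians of these lists were -0.01 and 0.07 over their tested genes, against -0.04 over all probes tested.

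Regulators of other classes known for choroid plexus and ependymal fate were set against the reference in the same way. Of 14 tested 7 were higher in CPE and 2 lower, with a median of 0.85, where 7.09% of all probes tested were higher and 10.2% lower. Trp73 was at 3.99 (SE 0.29, the reference clear of background on 1 array), Foxj1, the factor of motile cilia, at 2.98 (SE 0.36), Zic2 at 2.15 and Sox9 at 1.54, while Gli3 and Bmp4 were at -1.30 and -1.21. Of 15 eye and pigment cell regulators tested, 5 were lower, led by the photoreceptor factors Nrl (-6.37, SE 0.16) and Neurod1 (-5.70, SE 0.22, CPE clear of background on 1 array), and 2 were higher, among them Nr2f2 (1.81). All p-values here are from the 3 mice, and 3 arrays limit their precision.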

How the data were processed

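RNA was measured on Agilent 2-colour arrays. The authors deposited scanner tables made with Agilent Feature Extraction 9.5.3.1, with an intensity per spot and channel on a linear scale, flags, and a log10 ratio of red over green. They also deposited a table of log2 levels of the CPE channel, normalized between arrays. Here red and green intensities were corrected with normexp (offset 50), normalized by loess within each array and tested with limma 3.58.1 in R 4.3.3. Control and outlier spots were left out. The test set the mean log2 ratio of 3 mice against 0. A bound compares channel means, with each array of the dim channel held at or above the dimmest signal that carried the flag. Where the dim channel lay above that signal the bound equals the fitted fold, which is then given without a bound. Single arrays can lie below a bound. Percentiles used log2 red intensity without background correction after Aquantile. Each replicate is labelled as a mouse of its own. Some genes are counted but not reported by name here. Members, families and gene lists were chosen with earlier results of these data known. Genes named were those in the high class, up to 5 per family and direction among calls of the same sign in all mice, up to 5 bounds per direction, up to 5 per other list, and a fixed list. The test was checked on simulated ratios. Of the 179 probes, 149 matched the RefSeq gene table by accession, all with the same symbol. Arrays number 3, and counting depth does not apply to them.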

Additional observations from a re-analysis of the deposited data

How the results depend on the processing

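Direction and the count of probes past the threshold (19) held within 1.5 times under median centring (23), Aquantile after loess (19), no background correction (18), no filter on dim probes (19) and array weights (20). The scanner's own log ratio called 28, of which 18 were lower. Restricted to probes flagged in CPE and reference alike, 27 members were tested and 9 were called, 2 higher and 7 lower, since fewer probes entered. Counted with the brightest probe of each gene, 7 genes were called over both directions together. Tested against a 2-fold change (treat), 8 were called, 2 higher (both Msx1 probes) and 6 lower, since the null was wider. Counted in the same way these were 6 genes over both directions, Msx1 included. Leaving out 1 mouse gave 17 to 21 calls, 7 to 10 higher, 10 to 12 lower, 14 to 17 genes and 2 or 3 probes in the high class. Without mouse 2, which leaves the arrays scanned on the same day, Pax3 was past the threshold at -1.05 and Six3 at 1.62. Probes well above background in CPE on all arrays numbered 35 to 60 when 1 mouse was left out, 60 without mouse 2, against 34. They numbered 80 with the flag for a positive and significant signal and 80 above the negative controls. Signs turned for 3 uncalled values of named genes. The Pou4f1 probe at 0.18 was at -0.019 with median centring. With 1 mouse left out, Otx1 from -0.096 to 0.36 and Otx2 from -0.10 to 0.43. The cause was not tested. No paired analysis was possible because the samples form 1 group. Signal over background limits most members: 113 of 179 could not be tested.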

Other observations

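Some probes of the same families carry older names in the scanner files and were not among the 179. Both probes named Mrg1, now Meis2, a TALE factor, were lower in CPE, with log2 ratios of -1.30, -2.16 and -1.78 (mean -1.75, SE 0.19, adjusted p = 0.00046) and of -1.76, -2.69 and -2.52 (mean -2.32, SE 0.21, adjusted p = 0.00017). The probe named Mrg2, now Meis3, was higher with 1.65, 1.35 and 0.30 (mean 1.10, SE 0.26, adjusted p = 0.013). Both Meis2 probes ranked higher in CPE (percentiles 83.9 and 87.3) than either Meis1 probe, which orders probes and not the transcripts of the 2 genes. Pou5f2 was lower (mean -1.46, SE 0.22, adjusted p = 0.0019), and the probes of Nkx2-1 and Nkx3-2 were too dim to test.

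Transcripts from the strand opposite a member were mostly dim. The one opposite Lhx1 was 2.02-fold lower in CPE in the fitted mean (-1.22, -0.82 and -1.0, SE 0.16, adjusted p = 0.0023). Its CPE signal was not well above background on any array. The Lhx1 probe itself was at -0.01 (adjusted p = 0.97). The 2 probes of Dlx6os1, which lies opposite Dlx6, were at 0.77 and 0.25 and were not past the threshold.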
